A study of Mus with 6 samples.

Results

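TREM2 is a lipid-sensing receptor of microglia, and the genes described here are Trem2 and 8 partners through which its signal passes or is restrained: Tyrobp, Hcst, Syk, Plcg2, Lat2, Btk, Card9 and Cd33. They were chosen by gene symbol. All 9 were found among the 18887 genes of the deposited table, and all 9 passed the filter on low values (at least 10 in at least 2 samples), which left 14698 genes for testing. The samples were RiboTag immunoprecipitates of whole mouse brain, in which a tagged ribosomal protein made in a chosen cell type is used to pull down that cell type's ribosomes with their mRNA. The labels assign all of them to microglia and give the genotype Ctr for 2 control precipitates and KO for 4 precipitates titled IRKO, which the study's title on insulin signalling lets one take for deletion of the insulin receptor. Age, strain, the promoter that drives the tag or the deletion, and any pooling of animals are not given in the labels. Nor is it labelled whether each library came from its own animal, and the p-values below therefore reflect library-to-library spread, part of which may be technical.

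TREM2 binds lipids, lipoproteins and amyloid at the microglial surface and has no signalling motif of its own. It pairs with the adaptors DAP12, encoded by Tyrobp, and DAP10, encoded by Hcst. DAP12 carries an immunoreceptor tyrosine-based activation motif (ITAM) that Src family kinases phosphorylate and to which the kinase SYK then binds, whereas DAP10 recruits phosphoinositide 3-kinase. SYK acts on linkers such as LAT2 and, with BTK, on phospholipase C-gamma-2, which releases calcium and activates protein kinase C. CARD9 couples SYK to NF-kB, and CD33 is a sialic acid receptor studied beside TREM2 in Alzheimer's disease.

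The libraries held 13858978 to 19010680 recovered reads. Values are normalized counts, which are read counts of a gene divided by 1 size factor per library. Insr, the gene taken to be deleted, had 565 and 532 normalized counts in the controls and 357, 366, 290 and 340 in IRKO replicates 1 to 4, so it was lower in every IRKO library but not absent. The defining microglial marker P2ry12 was read in all 6 libraries, with control values of 802 and 849 and IRKO values between 2235 and 3696. Tmem119, the other, had 3017 and 2559 in the controls and 3686 to 8449 in IRKO. Of 24 homeostatic microglia markers 21 rose, 2 fell and 1 did not pass, and they summed to 199242 and 150224 normalized counts in control replicates 1 and 2 and to between 315501 and 427349 in IRKO. All 15 astrocyte markers fell, from control sums of 460763 and 570762 to IRKO sums between 25782 and 34428. Neuron markers (9 of 12 higher, none lower, median log2 difference 0.92) and oligodendrocyte markers (8 of 12 higher, 3 lower, median 0.87) rose more often than they fell, as did endothelial and mural markers (5 of 12 higher, 2 lower, median 0.64). Neuron sums went from 37859 and 46586 to between 68006 and 86693, oligodendrocyte sums from 36023 and 44294 to between 45005 and 75509, and endothelial and mural sums from 4204 and 4658 to between 3876 and 13170. Rises on the deposited scale therefore included markers of cells other than microglia. No unprecipitated library was analysed here. In such bulk samples fewer cells of a type and less RNA per cell cannot be told apart.

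All 9 genes rose in IRKO on the deposited scale, between 2.74-fold for Plcg2 and 5.35-fold for Hcst, at limma adjusted p-values from 8.53e-06 to 0.000743. For comparison, 26.6% of all tested genes were called higher and 29% lower, 55.6% in all. The median log2 difference (IRKO minus control) of the 9 genes was 1.78, against 0.02 over all tested genes. Between 0.408% and 4.84% of tested genes had a larger difference than the individual genes. In each of the 9 the lowest IRKO library lay above the highest control library, as it did for 32.8% of tested genes. The microglia markers moved the same way over the same libraries, with a median of 1.55.

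**Figure D1:**
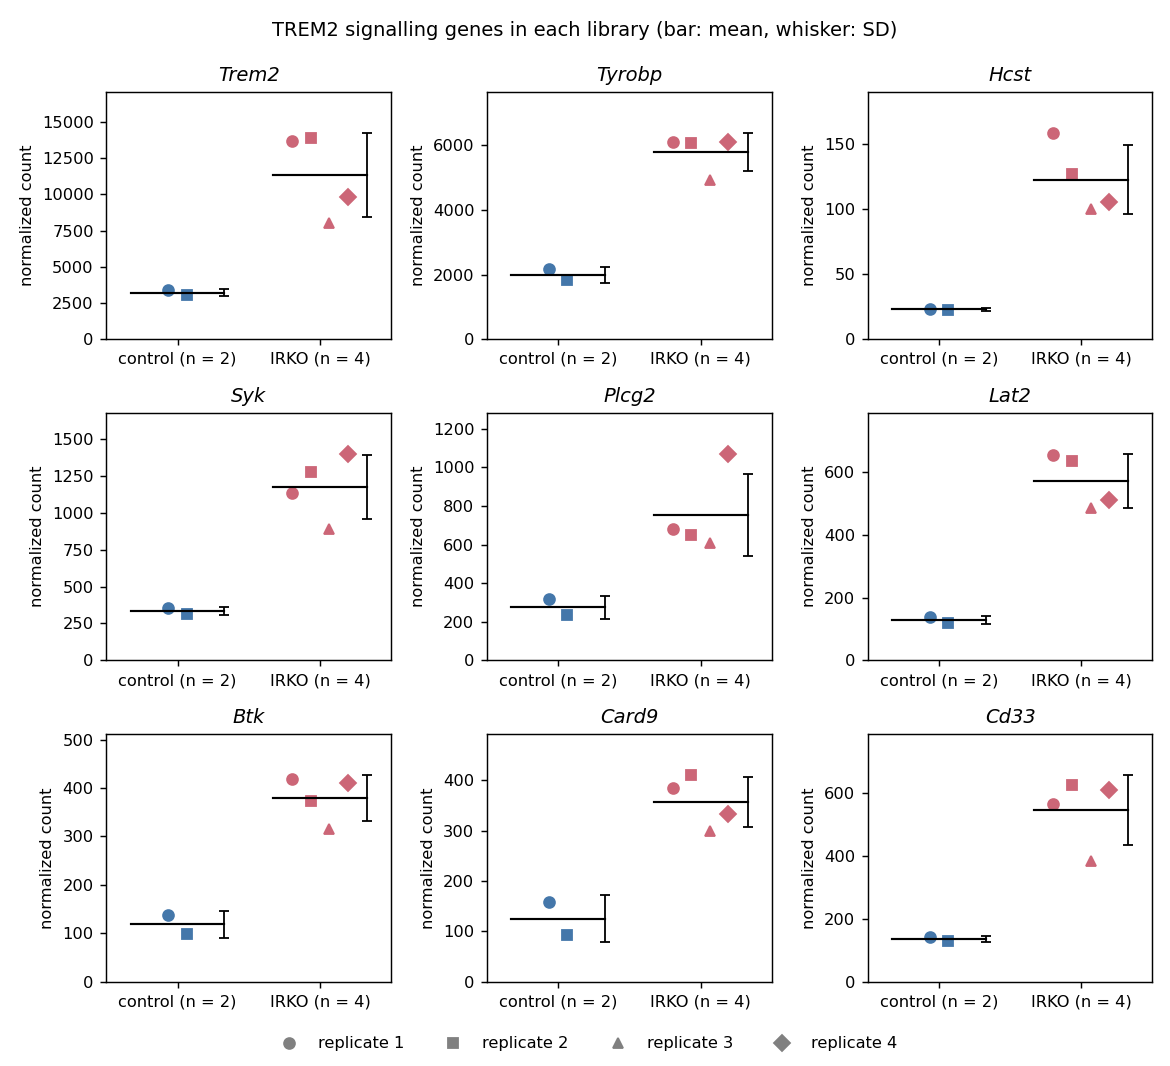
Normalized counts (vertical axes, linear and starting at 0) of the 9 genes in 2 control (blue) and 4 IRKO (red) libraries; symbols mark replicate numbers, horizontal bars the group means and whiskers the SD. Every IRKO point lies above both control points in all 9 panels, and the triangle of IRKO replicate 3 is the lowest IRKO point in each.

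Trem2, the receptor, is a gene of chromosome 17 (48346401 to 48352276, GRCm38.p6). It had 3382 and 3053 normalized counts in control replicates 1 and 2, and 13649, 13878, 8026 and 9837 in IRKO replicates 1 to 4. IRKO replicates 1 and 2 were high and close together, and replicates 3 and 4 were lower, yet the lowest IRKO value was 2.37 times the highest control value. The control mean was 3218 ± 233 (SD, n = 2) and the IRKO mean 11347 ± 2888 (SD, n = 4), a 3.53-fold rise with a log2 difference of 1.78 ± 0.222 (SE; 95% confidence interval 1.28 to 2.28; limma adjusted p = 0.000172). Values are sums over the gene, so its membrane-bound and soluble forms are not separated.

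Tyrobp, the gene for the ITAM adaptor DAP12, lies on chromosome 7 from 30413782 to 30417582. Its normalized counts were 2163 and 1826 in the controls and 6091, 6064, 4918 and 6112 in IRKO. IRKO replicates 1, 2 and 4 were nearly equal, replicate 3 stood below them, and the groups did not overlap. Tyrobp rose 2.91-fold, with a log2 difference of 1.54 ± 0.136 (SE; limma adjusted p = 2.22e-05, n = 2 against 4). Its coefficient of variation over the IRKO libraries, 10.1%, was the smallest of the 9 genes, and that of Trem2 was 25.4%.

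Hcst, the gene for DAP10, follows 129 bp after Tyrobp, on chromosome 7 from 30417712 to 30419854. It was the gene with the fewest reads of the 9. Normalized counts were 23.6 and 22.3 in the controls, from 21 and 23 reads, and 158, 127, 100.1 and 105 in IRKO, from 103 to 160 reads. The lowest IRKO library was 4.24 times the highest control. Hcst had the largest rise of the 9, with a log2 difference of 2.35 ± 0.241 (SE; 95% confidence interval 1.80 to 2.89; limma adjusted p = 5.60e-05). The sources used here do not state whether counting used strand, so reads running past the end of one of these neighbouring genes could be assigned to the other.

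Among the signalling enzymes, Syk (chromosome 13 from 52582610 to 52648792) encodes the kinase that binds phosphorylated ITAMs. Syk had 354 and 314 normalized counts in the controls and 1134, 1274, 890 and 1396 in IRKO. Here IRKO replicate 4 was the highest library, unlike for Trem2. Its log2 difference was 1.79 ± 0.175 (SE; limma adjusted p = 4.13e-05), a rise of 3.51-fold.

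Plcg2 (chromosome 8 from 117498275 to 117635142), which encodes phospholipase C-gamma-2, showed the smallest rise of the 9. Its values were 316 and 233 in the controls and 682, 652, 608 and 1068 in IRKO. IRKO replicate 4 stood far above the other 3, which were close together, and the coefficient of variation over IRKO, 28.3%, was the largest of the 9. The rise was 2.74-fold (log2 difference 1.43 ± 0.229, SE; limma adjusted p = 0.000743), and leaving out IRKO replicate 4 gave a log2 difference of 1.25.

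Btk (chromosome X from 134542334 to 134583628) encodes the TEC family kinase that activates PLC-gamma-2. Its normalized counts were 138 and 98.8 in the controls and 419, 373, 315 and 410 in IRKO. Its rise was 3.20-fold, with a log2 difference of 1.68 ± 0.183 (SE; limma adjusted p = 8.03e-05).

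The transmembrane linker gene Lat2 (chromosome 5 from 134600103 to 134619783), whose product is phosphorylated downstream of SYK, had 137 and 120.1 normalized counts in the controls and 654, 635, 485 and 509 in IRKO. IRKO replicates 1 and 2 were the higher pair, as for Trem2. Lat2 rose 4.44-fold, second to Hcst among the 9 genes, with a log2 difference of 2.13 ± 0.163 (SE; limma adjusted p = 8.53e-06), and the lowest IRKO value was 3.53 times the highest control. Card9 (chromosome 2 from 26352187 to 26360945), the adaptor gene on the way to NF-kB, had 159 and 91.98 in the controls and 384, 410.1, 300.2 and 332 in IRKO. Its controls differed by a factor of 1.72, the widest control spread of the 9. The rise was 2.85-fold (log2 difference 1.54 ± 0.225, SE; limma adjusted p = 0.000439), and the log2 difference ranged from 1.15 without control replicate 2 to 1.93 without control replicate 1.

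Cd33 (chromosome 7 from 43527399 to 43537424) encodes a sialic acid-binding lectin whose human form inhibits ITAM signalling. The mouse protein differs from the human one in its membrane and cytoplasmic parts. Cd33 had 142 and 129.7 normalized counts in the controls and 565, 626, 386 and 612 in IRKO, again lowest in IRKO replicate 3. It rose 4.03-fold, with a log2 difference of 1.98 ± 0.200 (SE; 95% confidence interval 1.53 to 2.43; limma adjusted p = 5.09e-05). Its rise was therefore within the range of the activating adaptors and kinases above.

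Variation within a group was shared across the 9 genes. IRKO replicate 3 was the lowest IRKO library for all 9, while replicates 1, 2 and 4 were each the highest for 3 of them. Control replicate 1 exceeded control replicate 2 for all 9, by factors of 1.06 for Hcst to 1.72 for Card9. The mean log2 level of the 24 microglia markers followed the same order at the low end, with 11.79 and 11.44 in control replicates 1 and 2, 12.96, 12.99 and 13.04 in IRKO replicates 1, 2 and 4, and 12.60 in replicate 3.

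Because the microglia markers rose with them, the 9 genes were also set against these markers. With each library scaled to an equal mean log2 of the 24 markers, none of which is among the 9, all 9 differences stayed above 0 and 4 passed limma's test, where 0.81% of all tested genes were called higher and 74.3% lower. Hcst (log2 difference 1.09, adjusted p = 0.00359), Lat2 (0.85, adjusted p = 0.00238), Cd33 (0.70, adjusted p = 0.00957) and Syk (0.51, adjusted p = 0.0408) rose relative to the markers. Trem2 stood at 0.50 with a 95% confidence interval of −0.03 to 1.03 (limma adjusted p = 0.0822). Tyrobp stood at 0.26 (interval −0.22 to 0.73), Btk at 0.40 (−0.09 to 0.90), Card9 at 0.27 (−0.25 to 0.78) and Plcg2 at 0.15 (−0.34 to 0.64), none past the threshold. The median of all tested genes was −1.25 in this scaling. Its reference was the marker mean, a log2 difference of 1.28 as deposited, below the marker median of 1.55. As deposited, 12 of the 24 markers rose more than Tyrobp, 7 more than Trem2 and 0 more than Lat2. A difference above 0 here is therefore one from the marker mean and not from most markers.

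The calls of Hcst and Lat2 relative to the markers were kept when any of the 6 libraries was left out. Cd33 did not pass once control replicate 1 was left out (0.59, limma adjusted p = 0.0782). Syk passed without IRKO replicate 3 (0.54, limma adjusted p = 0.0159) but not without any of the other 5 libraries, such as control replicate 1 (0.42, limma adjusted p = 0.192). Trem2 passed without IRKO replicate 3 (0.56, limma adjusted p = 0.0348) and without IRKO replicate 4 (0.60, limma adjusted p = 0.0410). Card9, not called in any of these fits, ranged from 0.051 without control replicate 2 to 0.48 without control replicate 1, and Plcg2, also never called, from 0.016 without IRKO replicate 4 to 0.24 without IRKO replicate 2. Where an IRKO library was left out, from 3 genes (without replicate 1 or 2) to 5 (without replicate 3) were called. The share of all tested genes called in those fits is not given here. Markers that astrocytes also express, Mertk, Sparc and Cd81, are in the list and did not rise, with log2 differences of −1.19, 0.17 and −1.09. Without Sparc and Cd81 in the list the 9 genes had a median of 0.34. Of them 3 were called higher, against 74 of all 14698 tested genes. Syk was then at 0.35 (limma adjusted p = 0.152) and Plcg2 turned to −0.01. Mertk, with the largest fall of the markers, stayed in that shorter list, and a list without it was not tested.

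**Figure D2:**
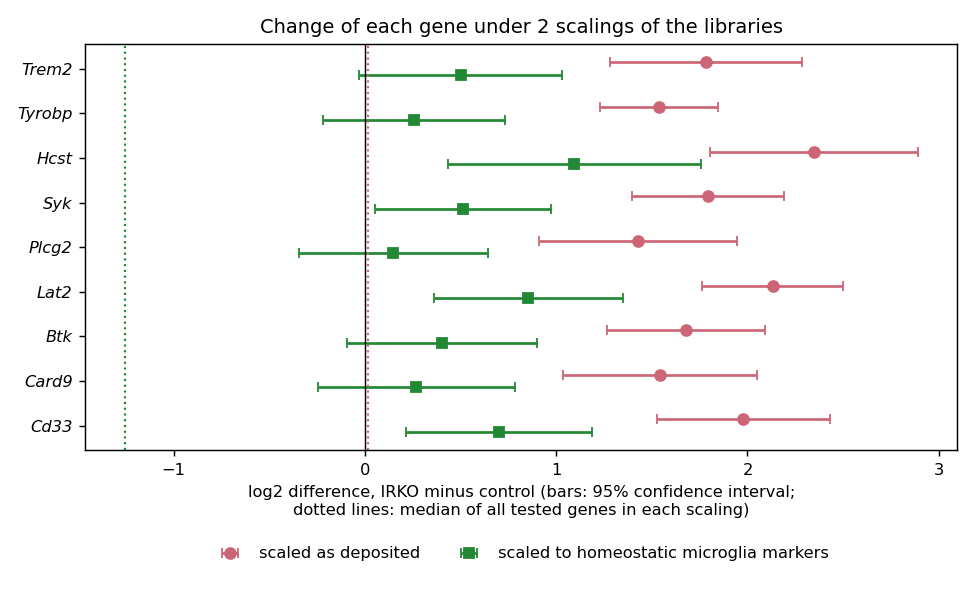
Log2 difference of IRKO minus control (horizontal axis) for each gene, with 95% confidence intervals, for libraries scaled as deposited (red circles) and scaled to 24 homeostatic microglia markers (green squares); dotted lines give the median of all tested genes in each scaling. The differences lie between 1.43 and 2.35 as deposited and between 0.15 and 1.09 relative to the markers, where the intervals of Hcst, Lat2, Cd33 and Syk stay above 0.

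Ratios within a library do not depend on how libraries are scaled to each other. The log2 ratio of a gene to the mean log2 of the markers was higher in all 4 IRKO libraries than in both controls for 7 of the 9 genes, against 1.56% of all tested genes, while 75.9% had a ratio that was lower in every IRKO library. Plcg2 and Card9 were the exceptions. With Sparc and Cd81 taken out of the marker list the groups did not overlap for 5 of the 9 genes. The share of all tested genes was not computed for that shorter list. The ratio of Hcst was −7.17 and −6.90 in the controls and between −6.31 and −5.65 in IRKO, a factor of 2.09. The ratio of Tyrobp was the steadiest, at −0.71 and −0.61 in the controls and between −0.46 and −0.34 in IRKO, a factor of 1.19. That of Trem2 was −0.07 and 0.14 in the controls and 0.77, 0.77, 0.37 and 0.22 in IRKO replicates 1 to 4, a factor of 1.41. An exact two-sided permutation test over the 15 assignments of 2 controls gave its smallest possible p, 0.0667, for Tyrobp, Hcst, Syk, Lat2, Btk and Cd33 (0.1 after adjustment over 9 ratios), 0.133 for Trem2, 0.267 for Card9 and 0.667 for Plcg2. A design of 2 against 4 cannot go below 0.0667 in this test.

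Set against Trem2 itself, 2 of the 8 partners had ratios whose groups did not overlap. The log2 ratio of Hcst to Trem2 was −7.10 and −7.04 in the controls and −6.42, −6.76, −6.31 and −6.53 in IRKO, higher in every IRKO library, by a factor of 1.48. That of Lat2 was −4.61 and −4.66 in the controls and −4.38, −4.45, −4.05 and −4.27 in IRKO, also without overlap, by a factor of 1.27. Only 0.102% of tested genes had a ratio to Trem2 that was higher in every IRKO library, and 86.4% had one that was lower in every IRKO library. For the other 6 partners the groups overlapped. Syk to Trem2 differed by 0.01 on the log2 scale, Cd33 by 0.20, Btk by −0.10, Card9 by −0.24, Tyrobp by −0.24 and Plcg2 by −0.35.

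No ratio to Trem2 passed the exact permutation test, with p = 0.0667 for Hcst, 0.133 for Lat2 and 0.267 to 1 for the others (adjusted over 8 ratios, 0.533 to 1). All 8 share Trem2 as their denominator. The IRKO libraries differed among themselves: Tyrobp to Trem2 was −1.16 and −1.19 in replicates 1 and 2, where Trem2 was high, and −0.71 and −0.69 in replicates 3 and 4, beside −0.64 and −0.74 in the controls. Plcg2 to Trem2 ranged over 1.21 log2 units within IRKO, from −4.41 in replicate 2 to −3.20 in replicate 4, more than any other partner.

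**Figure D3:**
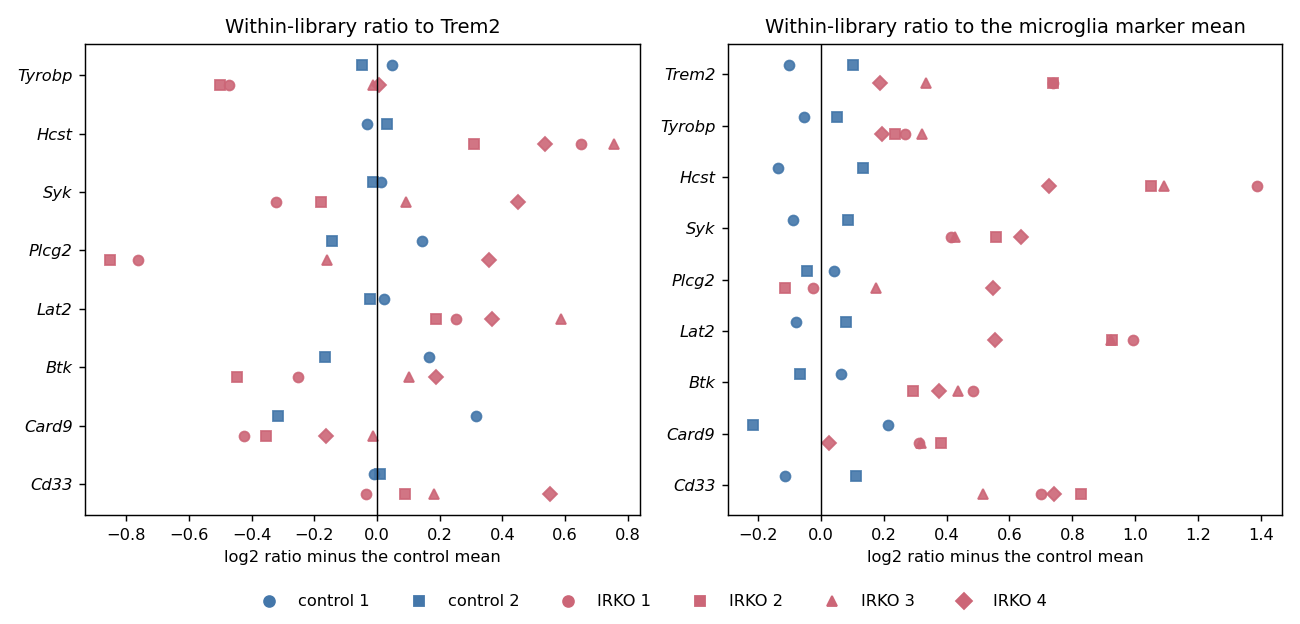
Log2 ratio of each gene to Trem2 (left) and to the mean of 24 microglia markers (right) in each library, shown minus the mean of the 2 controls so that genes share an axis; blue marks control and red IRKO libraries, and symbols mark replicates. Relative to Trem2 only the Hcst and Lat2 points of IRKO lie wholly above the controls, as for 0.102% of all tested genes. Relative to the 24 markers this holds for 7 of 9 genes, against 1.56% of all tested genes. With Sparc and Cd81 taken out of the list it holds for 5, where the share of all tested genes was not computed.

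The genes whose profiles over the 6 libraries were most like that of Trem2, by Euclidean distance between mean-centred log2 values, were Fcer1g (distance 0.118), Gimap1 (0.120), Gpsm3 (0.149), Tlr12 (0.185) and Ltc4s (0.187). Fcer1g, the ITAM adaptor of Fc receptors, had 1944 and 1820 normalized counts in the controls and 7614, 7454, 4670 and 5678 in IRKO. It shared with Trem2 the 2 higher and 2 lower IRKO libraries. Trem2's nearest partner among the 8 was Cd33, at a distance of 0.493 and rank 73 of the tested genes. For Tyrobp the nearest genes were Ifi27l2a (0.0975), Gm12250 (0.100), Irf8 (0.132), Alox5ap (0.145) and Arhgdib (0.159), and the nearest of the 8 others was Btk (0.266, rank 55). Irf8, a transcription factor of myeloid cells, had 616 and 515 in the controls and 1730, 1701, 1271 and 1776 in IRKO.

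Of 94 genes listed by role around TREM2, 74 were tested, 46 rose, 11 fell and 17 did not pass limma's test on the deposited scale, with a median log2 difference of 0.95. Of 17 receptors of the TREM family or pairing with DAP12 or DAP10, 5 passed the filter and all 5 rose (median 1.72). Siglech, a DAP12-paired receptor of microglia, rose 3.31-fold, Csf1r, the receptor for colony stimulating factor 1, 3.49-fold and Cd300c2 2.90-fold (limma adjusted p = 1.54e-05, 0.000147 and 7.30e-05). The other 2, named after their values were seen, were Clec5a (1.81 ± 0.282, log2, SE) and Treml2 (1.32 ± 0.391), and Treml2 no longer passed once control replicate 2 was left out (0.57, limma adjusted p = 0.168) and stood at 2.08 without control replicate 1. Among 7 tested other ITAM adaptors and receptors, 5 rose and none fell (median 1.33), with Fcer1g at 3.38-fold, Fcgr1 at 2.70-fold and Fcgr3 at 2.51-fold, the last 2 being Fc receptors for IgG. Relative to the microglia markers none of the receptors and adaptors named here passed the threshold. Siglech stood at 0.44, Csf1r (itself among those markers) at 0.51, Cd300c2 at 0.25, Clec5a at 0.54 and Treml2 at 0.07. Fcer1g stood at 0.44, Fcgr1 at 0.15 and Fcgr3 at 0.05.

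Src family kinases divided. Of 8 tested genes in this group 3 rose and 3 fell, with a median of −0.04. Lyn, a kinase of blood cells, rose 2.34-fold, and Csk, which restrains Src kinases, rose 1.53-fold but did not pass once control replicate 2 was left out (limma adjusted p = 0.0546). Src (−1.27 ± 0.123, log2, SE) and Fyn (−0.93 ± 0.117), which many brain cells express, fell. Relative to the microglia markers Lyn stood at −0.07 and Csk at −0.68.

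In the list of adaptors and effectors around SYK and PLC-gamma-2, 21 of 28 tested genes rose, 2 fell and 5 did not pass (median 0.99). Vav1, a guanine nucleotide exchange factor of blood cells, rose 3.56-fold, Pik3cd, a leukocyte phosphoinositide 3-kinase subunit, 3.06-fold and Blnk, a linker that BTK and PLC-gamma-2 bind, 2.99-fold. Relative to the microglia markers Pik3cd (0.34) and Blnk (0.28) did not pass the threshold. Vav1 passed at 0.54 (limma adjusted p = 0.0301), but not with Sparc and Cd81 out of the marker list (0.38, limma adjusted p = 0.118). The 2 genes that fell, Vav3 and Plcg1, are widely expressed relatives of Vav1 and Plcg2, although Vav2, another such relative named after its values were seen, rose (0.67 ± 0.157, log2, SE; limma adjusted p = 0.00594). Vav3 fell from 128 and 129 normalized counts to between 26.7 and 61.2 (log2 difference −1.70 ± 0.355, SE; limma adjusted p = 0.00315). Plcg1, the paralog of Plcg2, had 389 and 320 in the controls and 157, 173, 207 and 334 in IRKO, so the groups overlapped. Its limma adjusted p of 0.0413 was lost in 5 of the 6 fits leaving out 1 library, reaching 0.201. It was also lost with edgeR (0.0637, and 0.131 on 5 libraries), with no filter (0.0521), under quantile normalization (0.0736) and with no variance trend (0.0793).

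Inhibitors of ITAM signalling also rose more often than they fell, with 9 of 16 tested genes higher, 1 lower and 6 not past the threshold (median 0.95). Inpp5d, the lipid phosphatase SHIP1, rose 3.76-fold, Dok3, an adaptor that limits SYK signalling, 3.28-fold and Siglece, an inhibitory sialic acid receptor, 2.38-fold. Ptpn11, a widely expressed phosphatase, fell (−0.75 ± 0.121, log2, SE; limma adjusted p = 0.000781). Relative to the microglia markers Inpp5d was at 0.63 (limma adjusted p = 0.0164), Dok3 at 0.44 (limma adjusted p = 0.124) and Siglece at −0.01. With Sparc and Cd81 out of the marker list Inpp5d was at 0.47 and no longer passed (limma adjusted p = 0.0662).

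Of 10 tested genes for TREM2 ligands, shedding and trafficking, 3 rose and 5 fell (median −0.33), and the 3 lipoprotein genes that can supply ligands fell furthest. Apoe, a lipoprotein that TREM2 binds, had 391722 and 365480 normalized counts in control replicates 1 and 2, against 17771 to 31264 in IRKO (log2 difference −4.07 ± 0.250, SE; limma adjusted p = 2.15e-06). Clu, which encodes clusterin, had 126296 and 86525 in the controls and 2806 to 4267 in IRKO (−4.94 ± 0.203; limma adjusted p = 3.46e-07). The astrocyte markers, whose sums fell in the same libraries, had a median of −3.96 and a range from −4.77 to −2.69; their part in the falls of Apoe and Clu was not tested. Apoa1, a liver and gut lipoprotein gene, fell as well (−4.33 ± 0.990, log2, SE), with a difference of −2.23 when control replicate 2 was left out and −6.43 when control replicate 1 was, whose normalized counts were 1427 and 76.5. The sheddase gene Adam10, whose product cleaves TREM2 from the surface, rose 1.94-fold and Ms4a6d, of a family linked to soluble TREM2, 3.31-fold. Relative to the microglia markers Adam10 was at −0.33 and Ms4a6d at 0.48 (limma adjusted p = 0.0977).

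**Figure D4:**
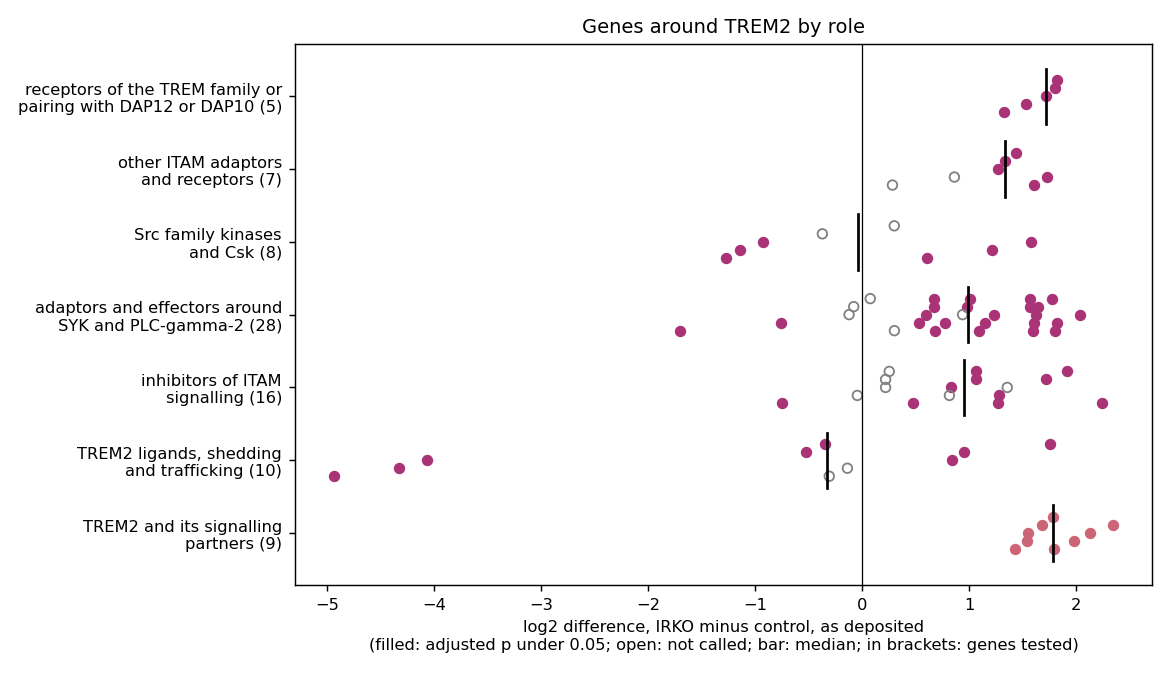
Log2 difference of IRKO minus control on the deposited scale (horizontal axis) for tested genes around TREM2 grouped by role (rows, number tested in brackets) and for the 9 genes (lowest row); filled points passed limma's test at an adjusted p under 0.05, open grey points did not, and bars are medians. Receptors and other ITAM adaptors lie above 0, Src family kinases lie on both sides, and 3 ligand genes lie below −4.

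Several of the 9 genes are also used by other blood cells, such as Btk, Syk and Plcg2 in B cells and Hcst in natural killer cells. Of 12 lymphocyte and natural killer markers 3 passed the filter, 1 rose and none fell; they summed to 187 and 205 in the control libraries, against 237 to 323 in IRKO, and Ncr1, a natural killer receptor, was listed at 0 in every library. Border macrophage and monocyte markers summed to 1022 and 1386 in the controls and 1892 to 2628 in IRKO, with 3 of 9 tested genes higher and 1 lower. Neutrophil and mast cell markers summed to 289 and 523 in the controls and 324 to 387 in IRKO, with 1 of 4 tested higher and 2 lower. The part of these cells in the rises of the 9 genes was not tested. Red cell markers, by contrast, all fell (5 of 5, median log2 difference −7.06), as did 7 of 8 liver markers (median −7.03). Red cell sums went from 75516 and 161622 in the controls to between 243 and 2132 in IRKO. Liver sums went from 4208 and 76707 to between 678 and 12023, so these overlapped. The bearing of these falls on the differences of the 9 genes was not tested.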

How the data were processed

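RNA bound to ribosomes was precipitated from whole brain and sequenced on the DNBSEQ platform, per the labels' protocols. Bowtie2 and build GRCm38.p6 are named in the submitters' processing notes. The counter, the annotation and the strandedness are not stated in the labels or headers. The authors deposited a signal per gene, normalized counts per the file headers: in each library 100% of values were whole multiples (within 0.05 reads) of the smallest value above 0, so reads could be recovered. In IRKO replicate 1 that value was 0.991, near 1, and edgeR was also run without this library.

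Values of 10 or more in 2 or more libraries were required of a gene, and such genes were tested as log2(value + 1) with limma 3.58.1 in R 4.3.3 (moderated variances with a trend, two-sided, Benjamini-Hochberg over 14698 genes, threshold 0.05). A pseudocount of 1 understates the fold changes of low genes; fold values in the text are ratios of group means. The fit was also run on simulated data in which few genes changed. That run does not show how the fit behaves here, where 55.6% of tested genes were called. Pairs of libraries within a group differed by a chi-square of 16.8 to 36.9 per degree of freedom, so none was treated as a duplicate. Coordinates come from the RefSeq table of GRCm38.p6, which matched 18542 symbols and all 9 genes. Exact permutation tests were used for ratios. Intervals do not include the uncertainty of the marker mean.

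Alternatives comprised a pseudocount of 0.5 or 5, dropping the filter or raising it to 50, TMM, quantile normalization, scaling to microglia markers, no trend, edgeR 4.0.16 and DESeq2 1.42.0 on recovered reads, a replicate block and leaving out each sample; the shortened marker list, edgeR on 5 libraries and leaving out libraries under marker scaling were added after the files had been seen. The 9 genes and the lists were chosen with earlier results of these data known. Named genes were the 9; in each pathway list up to 3 called genes with the smallest p in the direction with more calls and up to 2 in the other; the 5 nearest profiles of Trem2 and of Tyrobp; and defining markers. A gene that this rule picks is not reported here, though list counts and medians include it.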

Additional observations from a re-analysis of the deposited data

Results flagged for a closer look

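Each gene's 4 IRKO values, and each ratio's, were checked for a library far from the other 3, in 26 sets, of which chance flags about 5%. There were 3 such cases. Tyrobp had 4918 normalized counts in IRKO replicate 3, where the other 3 IRKO libraries lay between 6064 and 6112. Plcg2 had 1068 in IRKO replicate 4, against 608 to 682 in the others. The log2 ratio of Lat2 to the microglia markers was −4.04 in IRKO replicate 4, against −3.68 to −3.61 in the others, and still above both controls (−4.68 and −4.52).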

How the results depend on the processing

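All 9 genes were called higher, and none lower, under both other pseudocounts, both other filters, TMM, quantile normalization, no trend, edgeR, DESeq2, the replicate block and every omission of 1 library, and only scaling to microglia markers changed this. That scaling called 119 genes higher and 10915 lower over the whole table, 4 of the 9 genes higher and 34 of the pathway genes in either direction (57 as deposited); without Sparc and Cd81 in the marker list the counts were 74, 11625, 3 and 35. Directions that turned under it were those of Lyn (−0.067), Csk (−0.68), Siglece (−0.010), Adam10 (−0.33) and the marker Tmem119 (−0.35), and with the shorter list −0.23, −0.84, −0.17, −0.49 and −0.51 in the same order, with Plcg2 (−0.0090, and −0.012 as a ratio to the markers), Fcgr1 (−0.0074), Fcgr3 (−0.11) and Treml2 (−0.087) turning as well. Scaling moved the median of all genes to 0.12 under quantile normalization, where 56% of calls were higher against 47.9% as deposited, and to −1.25 under the markers, where 1.08% were. The number of ratios to Trem2 whose groups did not overlap was 2, and 2 or 3 when leaving out 1 IRKO library. The share of all tested genes is not given for these omissions. Counts with 1 control left are not given, because groups then separate more easily. Ratios to Trem2 that lay near 0 changed sign: Syk was −0.0011 at a pseudocount of 5 and ranged from −0.14 to 0.12 when leaving out 1 library, Btk from −0.27 to 0.064 and Card9 from −0.56 to 0.076. With 1 control left, that library is assumed to vary like the IRKO libraries. The replicate block left 6935 genes called against 8173, and changed no call of the 9 genes. Deviations of equally numbered libraries correlated at −0.08 and 0.08. With 2 controls their deviations mirror each other, so these correlations cannot decide whether libraries were paired. Depth limits Hcst most, at 21 and 23 reads in the controls.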

Other observations

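Around Trem2 on chromosome 17, the TREM cluster genes Trem1, Trem3, Treml1 and Treml4 were near or at 0 in these libraries. Trem1 was listed at 0 in all 6, Trem3 reached at most 4.50 normalized counts, Treml1 5.84 and Treml4 11.2, the last in control replicate 1. Treml2 had 59.6 and 20.3 in the controls and 66.1 to 106 in IRKO. Next to Hcst on chromosome 7 lies Nfkbid, which encodes a nuclear inhibitor of the NF-kB family. Nfkbid, named after its values were seen, had 13.5 and 14.5 normalized counts in the controls and 52.5, 31.5, 43.7 and 53.6 in IRKO (log2 difference 1.60 ± 0.315, SE; limma adjusted p = 0.00234), and stood at 0.37 relative to the microglia markers. Aplp1, a neighbour on the other side of Nfkbid that encodes an amyloid precursor-like protein, had 42892 and 36373 in the controls and 9836 to 13195 in IRKO.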
